A study of Mus musculus with 12 samples.

Results

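The 28 genes described here make the inhibitory machinery of the cerebellar cortex: enzymes and transporters for GABA and glycine, their receptors and partners, and markers of molecular layer and Golgi interneurons. They were listed by name and role, with no threshold on measured values, out of the 57010 genes of the count table, and GABA-A receptor subunits were left out. The choice was made with earlier results of these data known. All 28 were in the table, and all 28 passed the filter on low counts that left 19166 genes for testing. Expression was measured by bulk RNA sequencing of mouse cerebellum, and the series title gives the region as crus 1, part of the lateral hemisphere.

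The 12 libraries came from 3 groups of 4. FVB mice, the inbred background strain, received saline. Mice of the Fmr1 knock out genotype received either saline (the samples titled sham, called the saline knockout here) or poly(I:C) into the peritoneal cavity (the treated knockout). Poly(I:C), an artificial double-stranded RNA, imitates a viral genome. The knocked-out gene makes FMRP, the RNA-binding protein that is missing in fragile X syndrome. FVB mice with poly(I:C) were not analysed here, so no comparison separated an effect of poly(I:C) in knockout mice from its effect in FVB. The sources used here do not give the knockout allele, ages, sexes, the poly(I:C) dose or the time after injection. Whether each sample is a different animal is not in the labels, and p-values thus measure the spread between these samples, part of which may be technical. The genotype comparison cannot tell the loss of Fmr1 apart from other differences between the mouse lines.

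In the cerebellar cortex, molecular layer interneurons (basket and stellate cells) release GABA onto Purkinje cells, and Golgi cells release GABA and glycine onto granule cells. Purkinje cells also release GABA, so the enzymes and the vesicular transporter of this group are shared between cell types. GABA is made from glutamate, loaded into vesicles, sensed by ionotropic and metabotropic receptors and cleared by transporters on neurons and glia, while the chloride gradient sets the sign of the ionotropic current. In bulk tissue, fewer cells of a type and less RNA per cell cannot be told apart.

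Depth was 35.2 to 48.7 M counts for FVB, 38.7 to 50.2 M for saline knockout and 39.4 to 56.4 M for treated knockout libraries. Fmr1 was at 85.5 to 108 counts-per-million (CPM) for FVB, 27.9 to 36.7 CPM for saline knockout and 33.9 to 36 CPM for treated knockout libraries. Ttr, the transthyretin gene of choroid plexus, was above 1000 CPM in saline knockout 2, treated knockout 2 and treated knockout 3 and at 1.63 to 65.3 CPM in the other 9 libraries. The summed level of 9 choroid plexus markers was 209 to 283 CPM for FVB, 202 to 6207 CPM for saline knockout and 152 to 4049 CPM for treated knockout libraries. Results are therefore also given without these 3 libraries, which leaves 4, 3 and 2 per group. The brainstem markers Hoxb3, Hoxb5 and Chat had at most 8 counts in any library. They belong to a list of 8 deep nuclei and brainstem markers, of which 3 were tested (Slc17a6, Spp1 and Nefh). The sum of these 3 was 188 to 226 CPM for FVB, 180 to 212 CPM for saline knockout and 195 to 228 CPM for treated knockout libraries. In the treated knockout against FVB 1 of the 3 was called, higher (log2 fold change 0.82, edgeR), beside 7.05% of all tested genes. Granule cell markers summed to 6426 to 7475 CPM and Purkinje cell markers to 8809 to 11246 CPM over all libraries.

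In the treated knockout 7 of the 28 genes were lower than in FVB: Nos1, Sorcs3, Kit, Npas3 and Nxph1 of the molecular layer interneuron group, the GABA-synthesising enzyme gene Gad1, and the GABA-B receptor subunit gene Gabbr1. These 7 made up 25% of the genes, beside 7.05% of all 19166 tested genes called in either direction and 3.24% called lower (edgeR, Benjamini-Hochberg adjusted p under 0.05). Among genes with a mean of at least 10 CPM, as 25 of the 28 had, 7.5% were called and 4.38% were lower. Because the 28 genes were chosen with earlier results of these data known, these shares describe the genes and do not test them as a group. Between the saline groups Sorcs3 alone was called, lower in the knockout, beside 1.53% of all tested genes called and 0.72% called lower. Between the treated and the saline knockout edgeR called 0 of the 28, beside 2.87% of all tested genes called and 1.06% called lower. In that last comparison DESeq2 called 3 of the 28, beside 5.14% of all genes, and limma-voom called 0, beside 2.98%. An unadjusted p under 0.05 was found in edgeR for 11 genes between the saline groups (9 lower), beside 12% of all genes, and for 8 between the knockout groups (6 lower), beside 15.5%. In the treated knockout against FVB it was found for 20 genes (18 lower), beside 21.3%. These comparisons share libraries pairwise, and the values of each are set side by side below without being counted as separate evidence.

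Markers of glial cells moved in both directions in the treated knockout against FVB, where 7.05% of all tested genes were called. Of 7 oligodendrocyte markers 2 were called, where Opalin fell (log2 fold change -0.999, adjusted p = 0.00162, edgeR) and Mobp rose (0.52, adjusted p = 0.00659). Their sum was 5638 to 6546 CPM for FVB, 6053 to 6665 CPM for saline knockout and 5685 to 7586 CPM for treated knockout libraries. Of 7 microglia markers 2 were called, where P2ry12 fell (-0.59, adjusted p = 0.0125, edgeR) and C1qb rose (0.65, adjusted p = 0.0167), and their sum was 128 to 151, 117 to 143 and 116 to 150 CPM in the same order. The astrocyte water channel gene Aqp4 fell as well (-0.33, adjusted p = 0.0328, edgeR), as 1 of 10 astrocyte and Bergmann glia markers. The part of these cell types in the differences of the 28 genes was not tested.

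**Figure D1:**
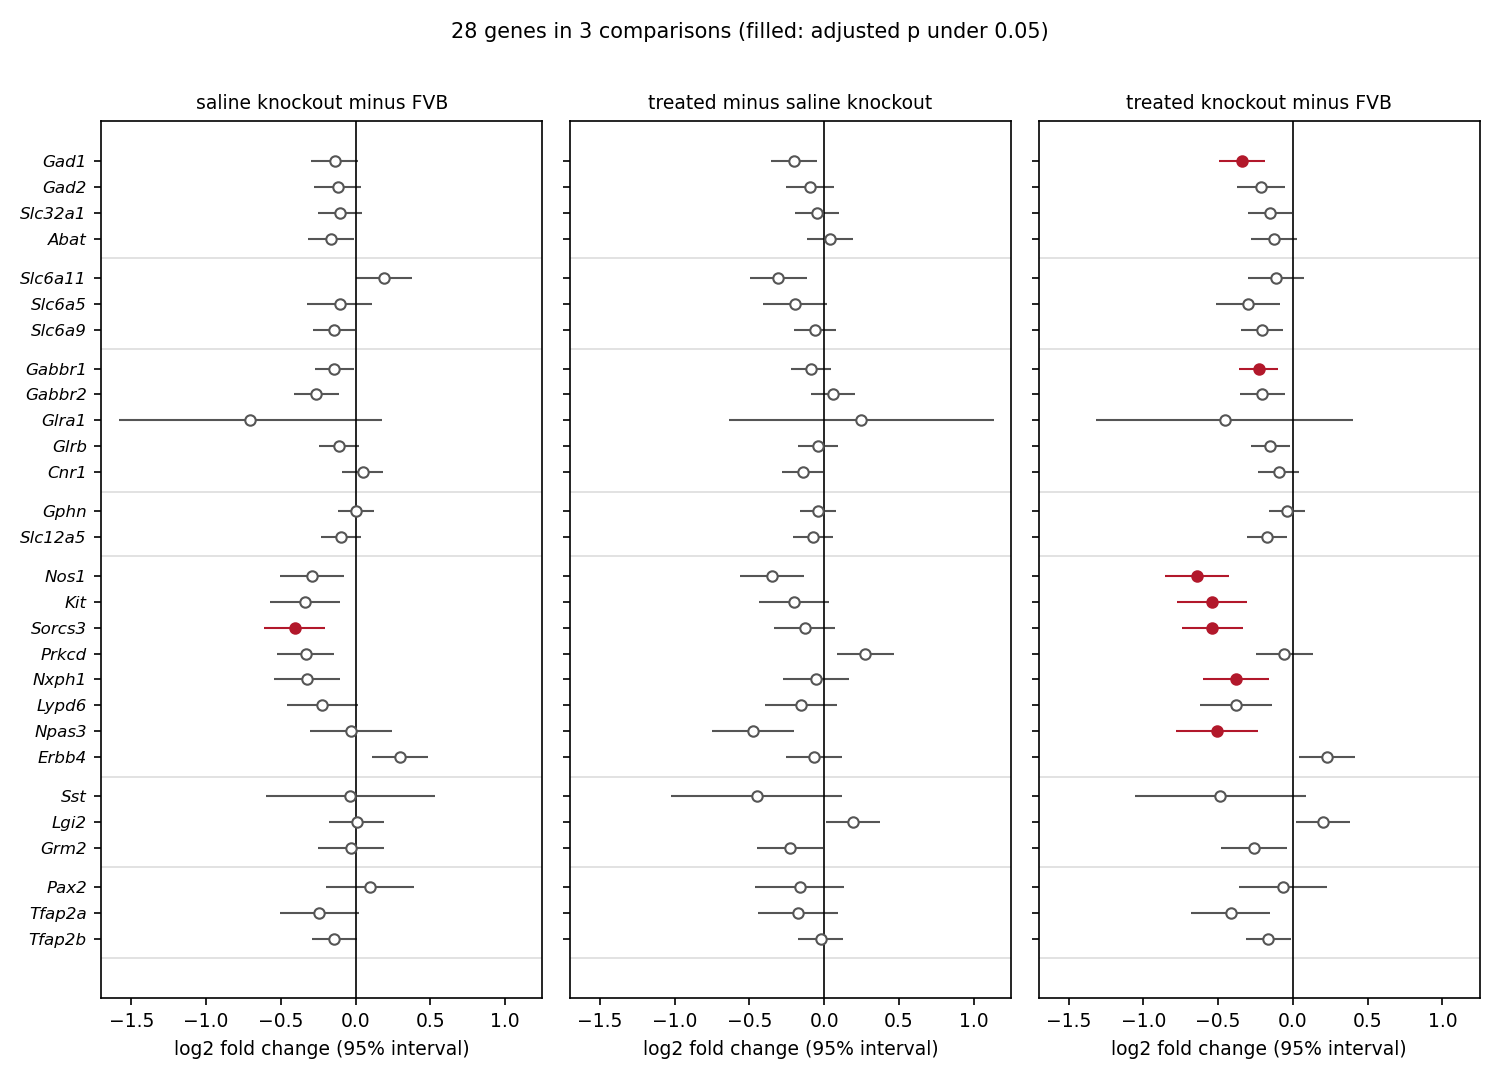
Log2 fold change of each of the 28 genes with its 95% interval (x axis) in the 3 comparisons, grouped by role from GABA synthesis at the top to transcription factors at the bottom; filled points have an adjusted p under 0.05 (edgeR). The right panel, treated knockout against FVB, holds 7 filled points, all left of 0, and 5 of them lie in the molecular layer interneuron group.

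Most of the 28 genes had small negative fold changes in each comparison. Values below 0 were found for 22 of 28 genes in the saline knockout against FVB, where 49.1% of all tested genes were below 0, with a median log2 fold change of -0.13 beside 0.0033. In the treated against the saline knockout 23 of 28 were below 0, where 50.4% of all genes were, with a median of -0.09 beside -0.0017. In the treated knockout against FVB 26 of 28 were below 0, where 49.8% of all genes were, with a median of -0.21 beside 0.0010. The 2 genes above 0 in that comparison were Erbb4 and Lgi2. The summed level of the 28 genes was 5375 to 5896 CPM for FVB, 4935 to 5506 CPM for saline knockout and 4696 to 5224 CPM for treated knockout libraries, so the treated and FVB libraries did not overlap in this sum. Abundant genes, Gad1 and Gabbr1 among them, weigh most in it. For 32 other GABA and glycine genes, described below, the sums overlapped (5475 to 5790 CPM for FVB and 5492 to 6127 CPM for treated knockout libraries). Those of 15 further interneuron genes overlapped narrowly (1660.04 to 1881 and 1551 to 1660.11 CPM).

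Levels per exon length, in CPM per kb, ran from 124 for Gabbr1 to 0.262 for Glra1 in FVB. The most abundant transcripts on this scale were Gabbr1, Gad1 (98.9), Cnr1 (80.5) and Slc12a5 (75.2). Among the interneuron markers Kit stood at 34.5 CPM per kb, Nos1 at 22.5 and Sorcs3 at 5.01. The transcription factor genes Tfap2a (2.31) and Pax2 (1.96) were near the bottom of the order. Neighbours such as Cnr1 at 80.5 ± 3.11 and Slc12a5 at 75.2 ± 4.28 (SD, n = 4), or Glrb at 58.8 ± 4.0 and Gabbr2 at 58.6 ± 4.22, differed by less than the sum of their SDs. Within a group the libraries varied by a median coefficient of variation of 8.33% for FVB, 8.84% for saline knockout and 6.64% for treated knockout libraries. Nos1 varied least in FVB (2.95%) and Glra1, with 10 to 36 counts per library, varied most (49.4%).

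**Figure D2:**
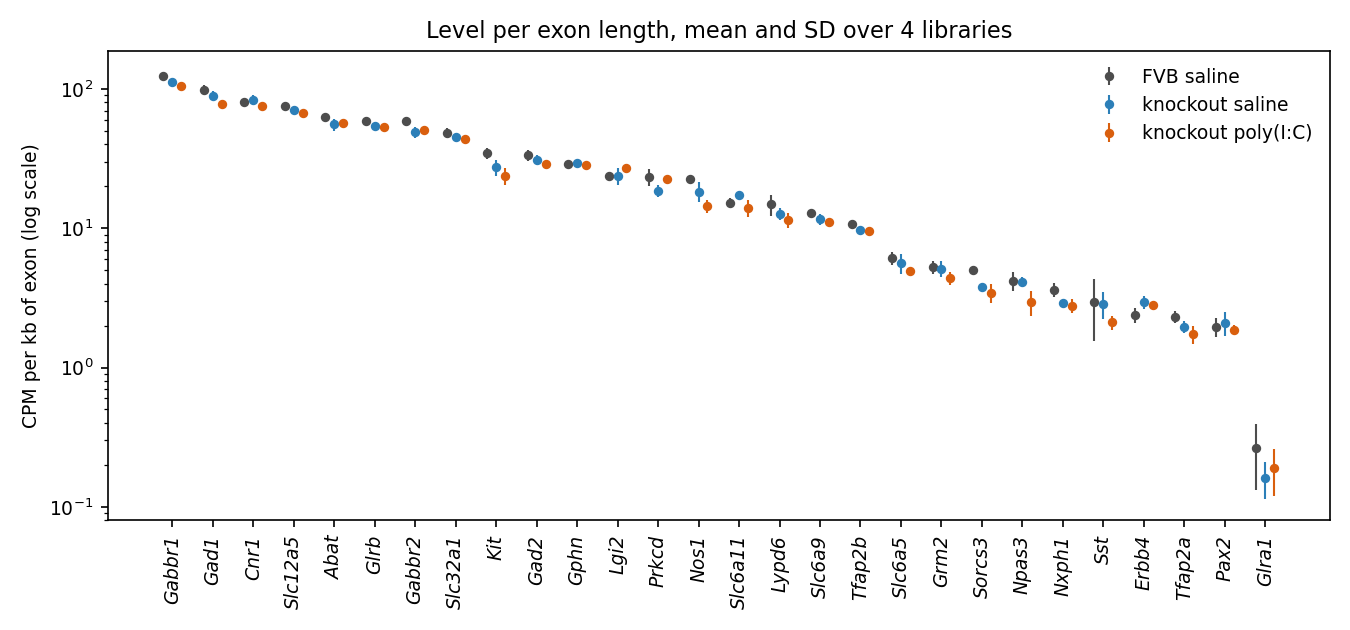
Level of each of the 28 genes in CPM per kb of exon on a log axis, ordered by the FVB mean; points are means and bars SD over 4 libraries. The order spans from Gabbr1 at 124 to Glra1 at 0.262 CPM per kb in FVB, and the 3 groups lie close together for most genes.

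Windows before a RefSeq start are shown for 5 of the genes that were lower in the treated knockout. Each line gives the 250 bases before the gene's first listed RefSeq start on the GRCm38.p6 assembly, 5′ to 3′ on the gene's strand. Whether cerebellar transcripts begin at these starts was not tested. The Nos1 window ends in a run of c and t followed by ag, as introns do, so it may lie inside the gene and not be its promoter. Capitals mark a match to the TFAP2 motif GCCNNNGGC, the site of the AP-2 proteins that Tfap2a and Tfap2b encode.
Nos1, chr5:117866589-117866838, + strand: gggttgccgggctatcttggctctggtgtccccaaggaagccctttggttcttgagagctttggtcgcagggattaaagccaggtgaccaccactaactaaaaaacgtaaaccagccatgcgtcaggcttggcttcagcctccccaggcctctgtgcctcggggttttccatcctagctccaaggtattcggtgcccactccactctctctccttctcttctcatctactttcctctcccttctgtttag
Kit, chr5:75574737-75574986, + strand: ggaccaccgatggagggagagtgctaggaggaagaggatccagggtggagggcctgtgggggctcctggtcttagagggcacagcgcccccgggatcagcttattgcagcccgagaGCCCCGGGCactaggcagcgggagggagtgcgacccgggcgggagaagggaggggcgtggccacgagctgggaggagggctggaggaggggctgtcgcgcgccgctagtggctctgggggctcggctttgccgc
Sorcs3, chr19:48205775-48206024, + strand: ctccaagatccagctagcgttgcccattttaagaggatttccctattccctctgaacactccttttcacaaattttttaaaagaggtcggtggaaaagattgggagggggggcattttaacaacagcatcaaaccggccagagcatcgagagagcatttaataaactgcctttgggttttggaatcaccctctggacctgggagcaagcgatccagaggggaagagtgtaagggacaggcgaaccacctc
Gad1, chr2:70561879-70562128, + strand: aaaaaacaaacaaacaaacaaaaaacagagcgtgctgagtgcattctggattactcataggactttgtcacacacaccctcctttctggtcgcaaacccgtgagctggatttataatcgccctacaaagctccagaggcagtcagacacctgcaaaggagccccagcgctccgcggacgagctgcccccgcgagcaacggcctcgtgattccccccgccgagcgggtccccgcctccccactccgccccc
Gabbr1, chr17:37045716-37045965, + strand: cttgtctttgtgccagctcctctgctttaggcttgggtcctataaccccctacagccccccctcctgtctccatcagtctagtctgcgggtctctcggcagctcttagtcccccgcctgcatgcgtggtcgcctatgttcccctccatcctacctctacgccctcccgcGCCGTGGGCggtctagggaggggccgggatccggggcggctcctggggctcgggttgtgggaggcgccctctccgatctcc
The motif, which reads the same on both strands, was matched in the windows of Kit and Gabbr1 and not in those of Nos1, Sorcs3 and Gad1. The windows of Nxph1 and Npas3, which also fell and are not printed, held no match either. Of the 26 genes with a RefSeq window 7 held the motif (Gad2, Slc6a11, Kit, Prkcd, Lgi2, Grm2 and Gabbr1), beside 13.6% of all 27025 windows. The GC content of these 7 windows ran from 64% (Gad2) to 72.4% (Lgi2), above the median of all windows, and the shares were not matched for GC content. The cAMP response element TGACGTCA was found on either strand in 1 of 26 windows, that of Sst, beside 1.62% of all windows. The GC content was 54% for Nos1, 70.8% for Kit, 48.4% for Sorcs3, 58% for Gad1 and 66% for Gabbr1, where the median of all windows was 52%. A match describes letters in the window and shows no binding.

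Genes of GABA synthesis, packaging and breakdown were abundant. In the treated knockout against FVB 1 of the 4 fell, beside 3.24% of all tested genes called lower. Gad1 encodes GAD67, the enzyme that makes most of the brain's GABA. It was at 828, 781, 696 and 716 CPM for FVB, 754, 632, 695 and 659 CPM for saline knockout and 654, 560.2, 574 and 596 CPM for treated knockout libraries 1 to 4, and every treated library lay below every FVB library while the saline knockout overlapped both. The means were 755 ± 60.6, 685 ± 52.8 and 596 ± 41.5 CPM (SD, n = 4 each). Gad1 fell by 21.1% in the treated knockout against FVB, a log2 fold change of -0.34 (SE 0.0737, adjusted p = 0.00755) in edgeR (quasi-likelihood test, Benjamini-Hochberg adjustment over all tested genes, as below). Its log2 fold changes were -0.14 (adjusted p = 0.484) between the saline groups and -0.20 (adjusted p = 0.175) between the knockout groups (edgeR).

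Gad2, which encodes GAD65, the form held at synaptic vesicles, had a log2 fold change of -0.21 (SE 0.0757, adjusted p = 0.099) in the treated knockout against FVB (edgeR), with overlapping groups of 180 to 213 CPM in FVB and 155 to 187 CPM in the treated knockout. Slc32a1, the vesicular transporter that loads GABA and glycine, ranged from 111 to 147 CPM over all 12 libraries and had a log2 fold change of -0.15 there (adjusted p = 0.218, edgeR). Abat, the GABA transaminase that breaks GABA down, was at 506, 496, 448 and 487 CPM for FVB, 468, 426, 459 and 372 CPM for saline knockout and 476, 433, 412 and 453 CPM for treated knockout libraries 1 to 4. Its lowest library was saline knockout 4, the groups overlapped, and its log2 fold change was -0.17 (SE 0.0734, adjusted p = 0.362) between the saline groups and -0.13 in the treated knockout against FVB (adjusted p = 0.341, edgeR). Purkinje cells share these genes, and the sum of 12 Purkinje cell markers was 9673 to 10495 CPM for FVB, 9164 to 11246 CPM for saline knockout and 8809 to 9843 CPM for treated knockout libraries. Of those 12 markers 2 (Rora among them) fell in the treated knockout against FVB, while 0 of 8 granule cell markers were called, beside 7.05% of all tested genes. The part of either cell type in the Gad1 difference was not tested. The call of Gad1 ended when the 3 libraries high in Ttr were left out (-0.27, adjusted p = 0.16, edgeR).

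The ratio of Gad1 to Gad2 counts, which does not depend on scaling between libraries, was 3.94, 4.25, 3.86 and 3.35 for FVB, 3.71, 3.68, 3.95 and 3.81 for saline knockout and 3.5, 3.33, 3.70 and 3.53 for treated knockout libraries. The treated libraries and FVB 4 lay at the low end, and only treated knockout 3 reached the range of the saline knockout. The difference in mean log2 ratio was -0.11 between the knockout groups (two-sided exact permutation test, p = 0.0571, adjusted p = 0.343 over 6 ratio comparisons). It was -0.13 in the treated knockout against FVB (exact permutation p = 0.171, adjusted p = 0.514) and -0.02 between the saline groups (exact permutation p = 0.800, adjusted p = 0.800). The smallest p that 4 against 4 can give is 0.0286.

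None of the 3 uptake transporters was called by edgeR in any comparison, although the groups separated for several of them. Of all tested genes 1.53% were called between the saline groups, 2.87% between the knockout groups and 7.05% in the treated knockout against FVB. Slc6a11 encodes GAT3, the GABA transporter of astrocytes. It was at 80.0, 81.2, 78.2 and 68.7 CPM for FVB, 90.1, 85.6, 94.3 and 81.6 CPM for saline knockout and 78.9, 56.5, 72.5 and 76.5 CPM for treated knockout libraries 1 to 4. Every saline knockout library was above every FVB library and above every treated knockout library. The log2 fold change was 0.19 (SE 0.0895, adjusted p = 0.405) between the saline groups, -0.31 (SE 0.0895, adjusted p = 0.0771) between the knockout groups and -0.11 (adjusted p = 0.50) in the treated knockout against FVB (edgeR). Of 10 astrocyte and Bergmann glia markers 1 (Aqp4) fell between the knockout groups, beside 2.87% of all tested genes called. The sum of these markers was 3617 to 4068 CPM in the saline and 3372 to 3794 CPM in the treated knockout. The part of astrocyte RNA in the Slc6a11 values was not tested. The difference between the knockout groups was -0.19 once the 3 libraries high in Ttr were left out (adjusted p = 0.707, edgeR), and the lowest value, 56.5 CPM, was that of treated knockout 2. Without treated knockout 1 edgeR called this difference (-0.36, adjusted p = 0.0431), and DESeq2 called it over all libraries (adjusted p = 0.0394).

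Slc6a9 encodes GlyT1, the mainly glial glycine transporter. It was at 65.4, 69.7, 62.6 and 67.1 CPM for FVB, 59.7, 55.9, 67.6 and 56.2 CPM for saline knockout and 59.2, 57.5, 55.8 and 56.6 CPM for treated knockout libraries 1 to 4, and all 4 treated libraries were below all 4 FVB libraries. Its log2 fold change in the treated knockout against FVB was -0.21 (SE 0.0673, adjusted p = 0.071), and in the saline knockout against FVB it was -0.15 (adjusted p = 0.395, edgeR). The first of these was called without saline knockout 3 (adjusted p = 0.0427, edgeR) and by DESeq2 over all libraries (adjusted p = 0.0435). Saline knockout 3 is in neither group of that comparison and enters it through the spread, the filter and the scaling. A share of 30.2% of the exon length of Slc6a9 overlaps genes of the opposite strand, so its counts are uncertain where the strand setting is unknown. Slc6a5, the neuronal glycine transporter GlyT2 carried by Golgi cells, was at 38.3 to 47.7 CPM in FVB and 33.1 to 37.8 CPM in the treated knockout, again without overlap, with a log2 fold change of -0.30 (SE 0.103, adjusted p = 0.0879) that was called without saline knockout 4 (adjusted p = 0.0435, edgeR).

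Among the 5 receptor and receptor modulator genes, Gabbr1 alone fell in the treated knockout against FVB, beside 3.24% of all tested genes called lower. Gabbr1 and Gabbr2 encode the subunits of the metabotropic GABA-B receptor, the first binding GABA and the second coupling to the G protein. Gabbr1 was at 930.3, 1047, 901 and 970.0 CPM for FVB, 864, 821, 926 and 876 CPM for saline knockout and 846, 780.0, 817 and 839 CPM for treated knockout libraries 1 to 4. All 4 treated libraries were below all 4 FVB libraries, and the saline knockout overlapped both groups. It fell by 14.7% in the treated knockout against FVB, a log2 fold change of -0.23 (SE 0.063, adjusted p = 0.033) by edgeR. The call was lost without FVB 2 or 4 or treated knockout 2, 3 or 4 (adjusted p 0.0614 to 0.113, edgeR) and when the 3 libraries high in Ttr were left out (-0.19, adjusted p = 0.329).

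Gabbr2 separated the saline groups. It was at 402, 380.4, 359 and 424 CPM for FVB, 341, 316, 357 and 293 CPM for saline knockout and 361, 333, 321 and 346 CPM for treated knockout libraries 1 to 4, and the highest saline knockout library lay just below the lowest FVB library. The log2 fold change was -0.26 (SE 0.0708, adjusted p = 0.0757) between the saline groups, 0.06 (adjusted p = 0.76) between the knockout groups and -0.20 (adjusted p = 0.0948) in the treated knockout against FVB (edgeR). DESeq2 called the difference between the saline groups (adjusted p = 0.0205). Cnr1, the cannabinoid receptor CB1 that sits on interneuron and parallel fibre terminals, was at 522, 533, 489.9 and 531 CPM for FVB, 552, 497, 505 and 592 CPM for saline knockout and 519, 475, 466 and 484 CPM for treated knockout libraries 1 to 4. Its groups overlapped, and its log2 fold change between the knockout groups was -0.14 (SE 0.0653, adjusted p = 0.303) by edgeR. The glycine receptor subunit gene Glrb ranged from 227 to 297 CPM over all libraries and had a log2 fold change of -0.15 in the treated knockout against FVB (adjusted p = 0.173, edgeR). Glra1, the adult alpha subunit that is best known from spinal cord and brainstem, had 10 to 36 counts per library, and the 95% interval of its log2 fold change between the saline groups ran from -1.58 to 0.17, so a change was not detectable at this depth.

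Neither the synaptic scaffold gene nor the chloride exporter gene was called, beside 1.53%, 2.87% and 7.05% of all tested genes (saline groups, knockout groups, treated knockout against FVB). Gphn encodes gephyrin, which anchors GABA-A and glycine receptors, and ranged from 102 to 115 CPM over all 12 libraries. The 95% interval of its log2 fold change was -0.12 to 0.12 between the saline groups, -0.16 to 0.08 between the knockout groups and -0.16 to 0.08 in the treated knockout against FVB. Slc12a5 encodes KCC2, which lowers neuronal chloride, and was at 529, 604, 558 and 549 CPM for FVB, 546, 488, 563 and 496 CPM for saline knockout and 516, 482, 484 and 503 CPM for treated knockout libraries 1 to 4. The 4 treated libraries were below the 4 FVB libraries, and the log2 fold change was -0.17 (SE 0.0638, adjusted p = 0.113) by edgeR. It was -0.10 (adjusted p = 0.608) between the saline groups and -0.08 (adjusted p = 0.624) between the knockout groups.

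Slc12a2 encodes NKCC1, the chloride importer that opposes KCC2 and is also abundant in choroid plexus. The ratio of Slc12a5 to Slc12a2 counts was 3.44, 4.44, 3.61 and 3.82 for FVB, 4.02, 2.83, 4.60 and 3.46 for saline knockout and 3.73, 3.20, 2.87 and 3.91 for treated knockout libraries. The groups overlapped, and the 3 lowest ratios were those of the 3 libraries high in Ttr. The difference in mean log2 ratio was -0.05 between the saline groups (two-sided exact permutation p = 0.800, adjusted p = 0.800). It was -0.11 between the knockout groups (exact permutation p = 0.571, adjusted p = 0.800) and -0.16 in the treated knockout against FVB (exact permutation p = 0.286, adjusted p = 0.571). Leaving these 3 out, the differences were 0.07, -0.07 and 0.01.

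**Figure D3:**
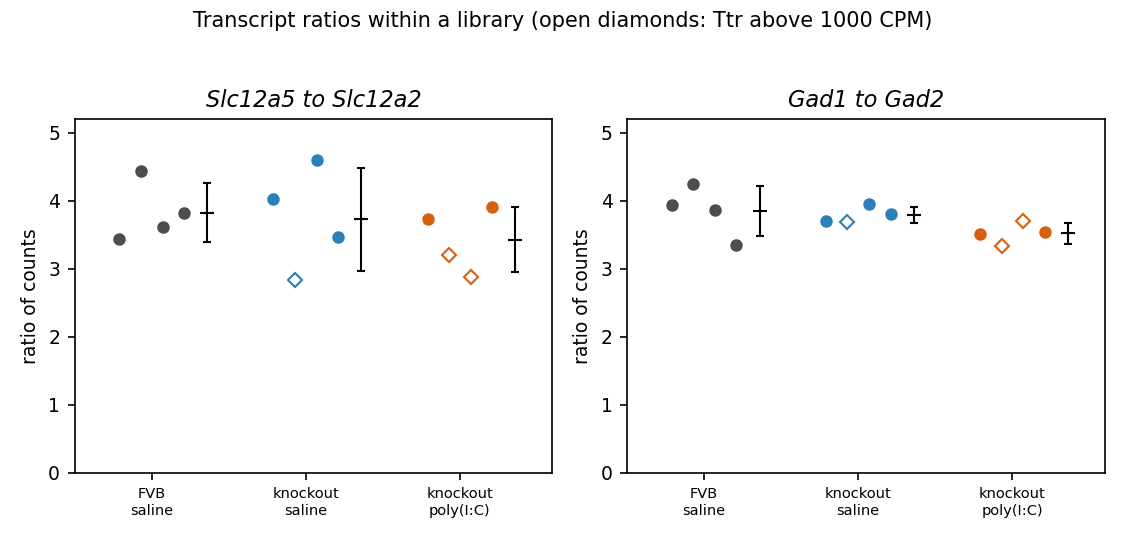
Ratio of Slc12a5 to Slc12a2 counts (left) and of Gad1 to Gad2 counts (right) in each library by group; bars show mean and SD over 4 libraries, and open diamonds mark libraries with Ttr above 1000 CPM. The 3 diamonds hold the lowest Slc12a5 to Slc12a2 ratios, 2.83, 2.87 and 3.20, and the groups overlap in both panels.

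The molecular layer interneuron group held 5 of the 7 calls in the treated knockout against FVB (5 of its 8 genes, all lower, with a median log2 fold change of -0.44). Of all tested genes 7.05% were called there and 3.24% were called lower. Outside the 28 genes, 1 of 15 further interneuron genes, described below, was called in that comparison. Between the saline groups 1 of 8 was called, beside 1.53% of all tested genes, with a median of -0.31. Between the knockout groups 0 of 8 were called by edgeR, beside 2.87% of all tested genes, with a median of -0.14. In that comparison 3 of the 8 had an unadjusted p under 0.05 in edgeR, beside 15.5% of all tested genes. Nos1 had the lowest adjusted p of the 28 genes in the treated knockout against FVB.

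Nos1 encodes neuronal nitric oxide synthase, which basket, stellate and granule cells make. It was at 257, 253, 252 and 239.8 CPM for FVB, 226, 215, 223 and 154 CPM for saline knockout and 179, 140.0, 161 and 162 CPM for treated knockout libraries 1 to 4. The FVB libraries lay close together and above all 8 knockout libraries, and saline knockout 4 lay among the treated libraries. The means were 250.4 ± 7.39, 204 ± 33.9 and 161 ± 16 CPM (SD, n = 4 each). Nos1 fell by 35.9% in the treated knockout against FVB, a log2 fold change of -0.64 (SE 0.102, adjusted p = 8.56e-04) by edgeR. The log2 fold change was -0.29 (SE 0.102, adjusted p = 0.207) between the saline groups and -0.35 (SE 0.102, adjusted p = 0.084) between the knockout groups (edgeR). Without saline knockout 4 the last value was -0.46 with an adjusted p of 6.14e-04 by edgeR, and DESeq2 called it over all libraries (-0.35, adjusted p = 0.0266). The fall against FVB was called by edgeR without the 3 libraries high in Ttr as well (-0.55, adjusted p = 0.029), the single gene of the 28 for which that held, beside 2.81% of all genes then called.

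Sorcs3 and Nxph1 are markers of different molecular layer interneuron types, and both were lower in both knockout groups by their means. Sorcs3 encodes a sorting receptor that governs the traffic of synaptic receptors. It was at 39.2, 35.6, 33.4 and 34.7 CPM for FVB, 30.0, 25.2, 25.9 and 26.6 CPM for saline knockout and 30.1, 23.8, 22.2 and 22 CPM for treated knockout libraries 1 to 4. All 8 knockout libraries were below the 4 FVB libraries, while the knockout groups overlapped. Sorcs3 fell by 24.6% in the saline knockout, a log2 fold change of -0.41 (SE 0.0973, adjusted p = 0.0424), and by 31.1% in the treated knockout, -0.54 (SE 0.0974, adjusted p = 0.0017), each against FVB by edgeR. Between the knockout groups it was -0.13 (adjusted p = 0.573, edgeR). The call between the saline groups was lost without any 1 of the 4 FVB libraries, without saline knockout 2, 3 or 4 and without treated knockout 2 (adjusted p 0.0519 to 0.132, edgeR). Without the 3 libraries high in Ttr both calls were lost, with -0.38 (adjusted p = 0.137) in the saline and -0.45 (adjusted p = 0.0688) in the treated knockout against FVB (edgeR).

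Nxph1 encodes neurexophilin 1, a secreted ligand of neurexins. It was at 18.9, 17.6, 14.4 and 17.8 CPM for FVB, 13.8, 13.4, 14.8 and 12.9 CPM for saline knockout and 14.9, 11.6, 12.4 and 13.8 CPM for treated knockout libraries 1 to 4. FVB 3 lay among the knockout libraries, and the other 3 FVB libraries were above all of them. Nxph1 fell by 23.2% in the treated knockout against FVB, a log2 fold change of -0.38 (SE 0.105, adjusted p = 0.0338), and its log2 fold change between the saline groups was -0.32 (SE 0.105, adjusted p = 0.16) by edgeR. The call was lost without FVB 1, 2 or 4 or treated knockout 2, 3 or 4 (adjusted p 0.0552 to 0.115, edgeR) and when the 3 libraries high in Ttr were left out (-0.25, adjusted p = 0.462).

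Kit encodes the receptor tyrosine kinase for stem cell factor, which Purkinje cells present to basket and stellate cells. It was at 341, 321, 288 and 279.7 CPM for FVB, 282, 242, 247 and 202 CPM for saline knockout and 251, 198, 179 and 218 CPM for treated knockout libraries 1 to 4. All 4 treated libraries were below all 4 FVB libraries, and saline knockout 1 lay just above the lowest FVB library. The means were 307 ± 28.7, 243 ± 32.5 and 212 ± 30.9 CPM (SD, n = 4 each). Kit fell by 31.2% in the treated knockout against FVB, a log2 fold change of -0.54 (SE 0.11, adjusted p = 0.00731), with -0.34 (adjusted p = 0.174) between the saline groups and -0.20 (adjusted p = 0.416) between the knockout groups (edgeR). This call too was lost when the 3 libraries high in Ttr were left out (-0.39, adjusted p = 0.131, edgeR).

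Npas3 encodes a bHLH-PAS transcription factor of interneurons that astrocytes also make. It was at 22.6, 23.1, 24.6 and 30.9 CPM for FVB, 25.1, 22.6, 27.1 and 24.5 CPM for saline knockout and 20.7, 21, 15.6 and 13.9 CPM for treated knockout libraries 1 to 4. The 4 treated libraries were below all 8 others, and the 2 saline groups overlapped. The log2 fold change was -0.51 (SE 0.131, adjusted p = 0.0255) in the treated knockout against FVB, a fall of 29.6%, and -0.48 (SE 0.13, adjusted p = 0.0584) between the knockout groups (edgeR). Between the saline groups it was -0.03 (adjusted p = 0.969). The call against FVB was lost without FVB 3 or 4 or treated knockout 3 or 4 (adjusted p 0.0532 to 0.0990, edgeR) and when the 3 libraries high in Ttr were left out (-0.54, adjusted p = 0.10). The difference between the knockout groups was called by edgeR without FVB 4, treated knockout 1 or treated knockout 2 (adjusted p 0.0331 to 0.0369) and by DESeq2 (adjusted p = 0.0140).

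**Figure D4:**
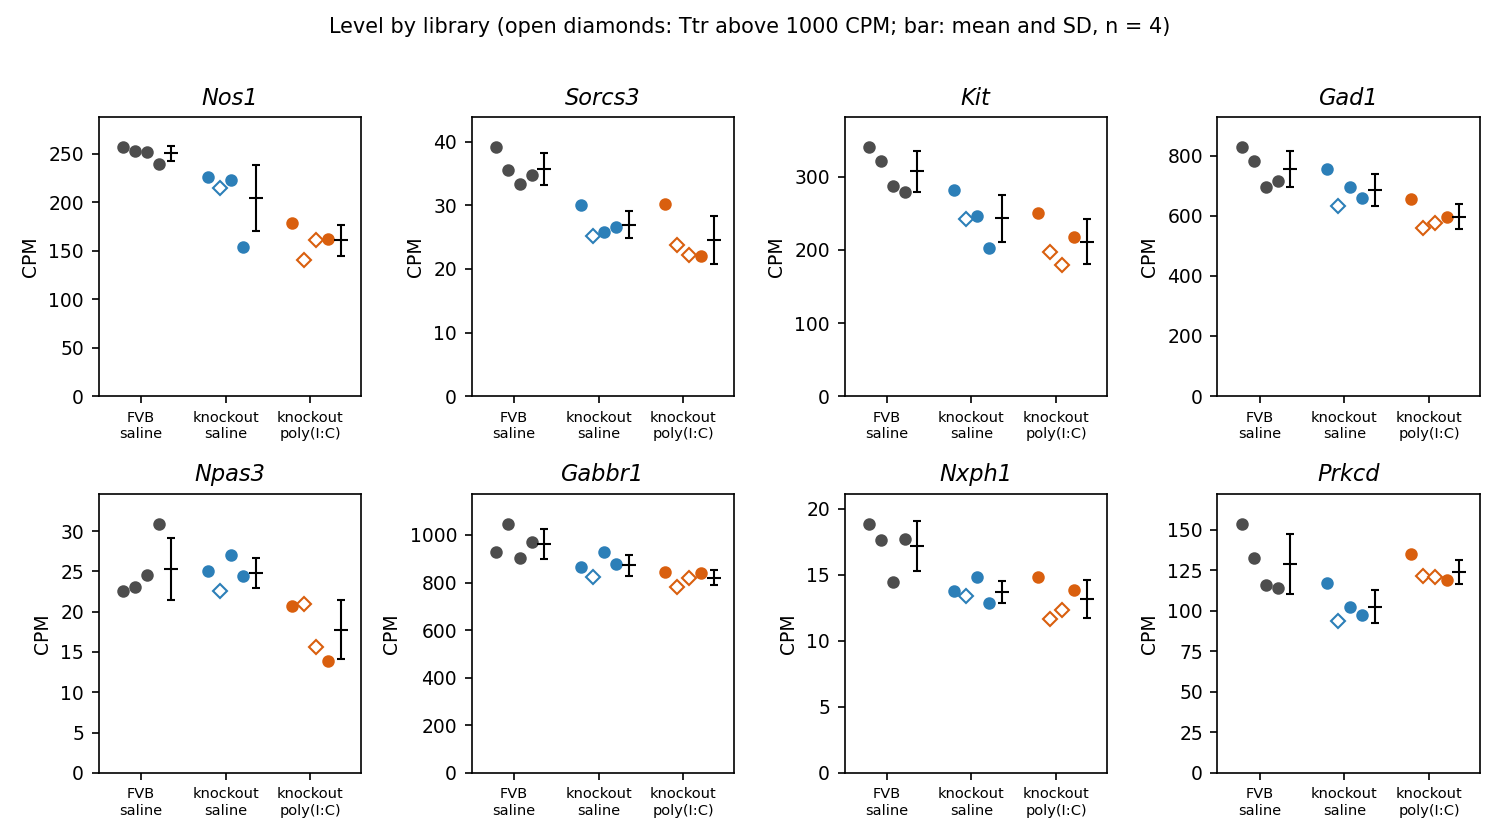
CPM in each library by group for the 7 genes that fell in the treated knockout against FVB and for Prkcd; bars show mean and SD over 4 libraries, and open diamonds mark libraries with Ttr above 1000 CPM. FVB and treated points do not overlap for Nos1, Sorcs3, Kit, Gad1, Npas3 and Gabbr1, overlap for Nxph1, and the Prkcd points of the treated knockout lie within the FVB range.

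The other 3 genes of this group were not called. Prkcd, which encodes protein kinase C delta and is singled out here after its values were seen, was at 154, 133, 116 and 114 CPM for FVB, 117, 93.8, 102 and 97.3 CPM for saline knockout and 135, 122, 121 and 119 CPM for treated knockout libraries 1 to 4. The treated libraries were all above the saline knockout libraries and within the FVB range. Its log2 fold change was -0.33 (SE 0.0902, adjusted p = 0.0806) between the saline groups, 0.28 (SE 0.0901, adjusted p = 0.123) between the knockout groups and -0.06 (adjusted p = 0.769) in the treated knockout against FVB (edgeR). Between the saline groups it was called without saline knockout 1 (-0.40, adjusted p = 0.0375, edgeR) and by DESeq2 (adjusted p = 0.0257). Lypd6, a modulator of nicotinic receptors, was at 48.9 to 69.5 CPM in FVB and 37.3 to 48.7 CPM in the treated knockout, without overlap, and its log2 fold change of -0.38 (SE 0.113, adjusted p = 0.0542) was just outside the threshold (edgeR). It was called without FVB 3 or treated knockout 1 (adjusted p 0.0285 to 0.0450, edgeR) and by DESeq2 over all libraries (adjusted p = 0.0187). Erbb4, the neuregulin receptor of interneurons, had positive values, with a log2 fold change of 0.30 (SE 0.0892, adjusted p = 0.117) between the saline groups and 0.23 (adjusted p = 0.135) in the treated knockout against FVB (edgeR). Its levels were 26.6 to 34.1 CPM for FVB, 31.9 to 41.1 CPM for saline knockout and 33.7 to 35.8 CPM for treated knockout libraries.

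None of the 3 Golgi cell genes was called by edgeR, beside 1.53%, 2.87% and 7.05% of all tested genes (saline groups, knockout groups, treated knockout against FVB). An unadjusted p under 0.05 was found in edgeR for 0 between the saline groups, beside 12% of all tested genes. It was found for 2 between the knockout groups, beside 15.5%, and for 2 in the treated knockout against FVB, beside 21.3%. Lgi2 encodes a secreted synaptic protein and Grm2 the inhibitory glutamate receptor mGluR2, through which glutamate quiets Golgi cells. Lgi2 was at 172, 154, 145 and 148 CPM for FVB, 183, 149.8, 159 and 130.0 CPM for saline knockout and 163, 188, 175 and 184 CPM for treated knockout libraries 1 to 4. The groups overlapped, and the log2 fold change was 0.19 (SE 0.0866, adjusted p = 0.286) between the knockout groups by edgeR. Grm2 was at 25.6, 29.3, 23 and 24.7 CPM for FVB, 27.2, 20.6, 27.8 and 24.8 CPM for saline knockout and 24.8, 21.2, 19.4 and 20.3 CPM for treated knockout libraries 1 to 4. Its treated libraries lay at the low end of an overlapping range, with a log2 fold change of -0.23 (SE 0.106, adjusted p = 0.306) between the knockout groups and -0.26 (adjusted p = 0.158) against FVB (edgeR). Sst, the neuropeptide somatostatin, had 41 to 139 counts per library, and its log2 fold change between the knockout groups had a 95% interval of -1.02 to 0.12.

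The 3 transcription factor genes, which set inhibitory neuron identity during development, were not called either. The shares of all tested genes called were 1.53%, 2.87% and 7.05% (saline groups, knockout groups, treated knockout against FVB). Tfap2a was at 10.4, 12.8, 10.4 and 11.7 CPM for FVB, 9.8, 8.64, 9.05 and 10.8 CPM for saline knockout and 9.98, 8.61, 6.8 and 8.51 CPM for treated knockout libraries 1 to 4. All 4 treated libraries were below the FVB libraries, and its log2 fold change of -0.42 (SE 0.127, adjusted p = 0.0549) was just outside the threshold (edgeR), while between the saline groups it was -0.24 (adjusted p = 0.486). The first value was called without saline knockout 4 or treated knockout 1 (adjusted p 0.0290 to 0.0466, edgeR) and by DESeq2 (adjusted p = 0.0187). Tfap2b was at 72.1, 63, 64.4 and 71.5 CPM for FVB, 64.8, 55.4, 60.3 and 65.1 CPM for saline knockout and 63.1, 62.5, 55.3 and 60.7 CPM for treated knockout libraries 1 to 4. Its groups overlapped, with a log2 fold change of -0.14 (SE 0.0715, adjusted p = 0.455) between the saline groups and -0.16 (adjusted p = 0.185) in the treated knockout against FVB (edgeR). Pax2, a marker of Golgi cells and of immature interneurons, ranged from 8.64 to 14.1 CPM over all libraries, and the 95% interval of its log2 fold change in the treated knockout against FVB was -0.36 to 0.23.

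Counted without a test, 11 of the 28 genes had all 4 treated libraries below all 4 FVB libraries, beside 7.46% of all tested genes, and 0 had all 4 above, beside 6.74%. They were Gad1, Slc6a5, Slc6a9, Nos1, Kit, Sorcs3, Tfap2a, Gabbr1, Lypd6, Npas3 and Slc12a5. Between the saline groups the knockout was lower without overlap for 3 genes (Nos1, Sorcs3 and Gabbr2), beside 3.45%, and higher for Slc6a11, beside 3.57%. Between the knockout groups the treated libraries were lower without overlap for Slc6a11 and Npas3, beside 4.82%, and higher for Prkcd, beside 4.93%. Without the 3 libraries high in Ttr edgeR called 0 of the 28 between the saline groups (8 at an unadjusted p under 0.05, beside 10.1% of all genes), 0 between the knockout groups (2 at an unadjusted p under 0.05, beside 7.58%) and 1, Nos1, in the treated knockout against FVB (9 at an unadjusted p under 0.05, beside 12.2%). The shares of all genes called were then 1.16%, 1.09% and 2.81%.

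Other genes of the GABA and glycine pathway, a list of 34, gave 32 tested genes. Between the saline groups edgeR called 0 of the 32, beside 1.53% of all tested genes, with 3 at an unadjusted p under 0.05, beside 12%. Between the knockout groups it called 0, beside 2.87%, with 6 at an unadjusted p under 0.05, beside 15.5%. In the treated knockout against FVB 4 of the 32 were called, 3 lower and 1 higher, beside 7.05% of all tested genes. The median log2 fold change of the 32 was -0.12 there. Kctd12, an auxiliary subunit of the GABA-B receptor, was at 299, 319.7, 311 and 329 CPM for FVB, 283, 269, 255 and 256 CPM for saline knockout and 257, 246, 222 and 255 CPM for treated knockout libraries 1 to 4. A share of 64.2% of its exon length overlaps other genes, mainly one of the opposite strand, so its counts are uncertain where the strand setting is unknown. All 8 knockout libraries were below the FVB libraries, and Kctd12 fell in the treated knockout by a log2 value of -0.36 (SE 0.0619, adjusted p = 0.00101), with -0.24 (SE 0.0618, adjusted p = 0.0539) between the saline groups (edgeR). Its fall without the 3 libraries high in Ttr was -0.30 (adjusted p = 0.0497, edgeR).

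Slc38a1, a neuronal glutamine importer that feeds the transmitter pool, fell, with a log2 fold change of -0.23 (SE 0.0617, adjusted p = 0.026) (edgeR). Glul, the glial glutamine synthetase, rose by 0.94 (SE 0.19, adjusted p = 0.014) on the log2 scale (edgeR). It was at 881, 614, 686 and 628 CPM for FVB, 875, 714, 898 and 934 CPM for saline knockout and 917, 1214, 1627 and 1639 CPM for treated knockout libraries 1 to 4, so the treated libraries were all above FVB and treated knockout 1 lay among the saline knockout libraries. Both calls were lost when the 3 libraries high in Ttr were left out (adjusted p = 0.184 with a log2 fold change of -0.23 for Slc38a1 and 0.112 with 0.87 for Glul, edgeR). The call of Glul was also lost without FVB 2 (adjusted p = 0.0510, edgeR) and in a fit of the 2 groups alone (0.0525), and that of Slc38a1 without FVB 1, 2 or 4 or treated knockout 3 or 4 (0.0604 to 0.108).

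A list of 16 further interneuron genes had 15 tested. Between the saline groups edgeR called 0 of the 15, beside 1.53% of all tested genes, with 4 at an unadjusted p under 0.05, beside 12%. Between the knockout groups it called 0, beside 2.87%, with 5 at an unadjusted p under 0.05, beside 15.5%. In the treated knockout against FVB it called 1 of the 15 (6.67%), near the 7.05% of all tested genes. The median log2 fold change of the 15 in the last comparison was -0.0095, beside -0.21 for the 28 genes. The called gene, Calb2, encodes calretinin, which in the cerebellum is made by unipolar brush and granule cells as well. It was at 409.8, 479, 426 and 371 CPM for FVB, 419, 280.2, 342 and 366 CPM for saline knockout and 325, 335, 327 and 301 CPM for treated knockout libraries 1 to 4, with all treated libraries below FVB, and fell by a log2 value of -0.39 (SE 0.10, adjusted p = 0.0272) (edgeR). The call was lost without FVB 1, 2 or 3 or any 1 treated library (adjusted p 0.0505 to 0.0915, edgeR) and held when the 3 libraries high in Ttr were left out (-0.43, adjusted p = 0.0333). With log2 Ttr as a covariate it was lost (-0.35, adjusted p = 0.0685, edgeR).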

How the data were processed

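Per the submitters' processing notes, reads were handled with Trim Galore, HISAT2 and featureCounts on GRCm39, and the authors deposited raw read counts of 57010 Ensembl genes in 12 libraries. The sources used here do not give versions, annotation, strand setting or the treatment of multiply matched reads, so genes that overlap others are uncertain (Slc6a9, Slc32a1, Tfap2a, Grm2, Glra1, Gphn, Nos1 and Npas3, and Kctd12 and Glul of the other lists).

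Groups came from the labels. Symbols came from GENCODE M21 (52029 identifiers matched). Genes were kept by filterByExpr (minimum count 10, minimum total 15), scaled by TMM and tested with edgeR 4.0.16 in R 4.3.3 (robust quasi-likelihood, 3 group means, 9 residual degrees of freedom, biological coefficient of variation 0.152), with Benjamini-Hochberg adjustment over 19166 genes and a threshold of 0.05. "Called", "fell" and "rose" mean an adjusted p under it. SE is the size of the log2 fold change divided by F's square root, and the prior count was 0.125. CPM use TMM-scaled totals, and CPM per kb the GENCODE M21 exon union. Promoter windows precede each gene's first listed RefSeq start (GRCm38.p6), and Glra1 and Abat were not matched. Count ratios were compared with exact permutation tests. The scripts were tested on simulated data.

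Full values are given for genes called in any comparison and, within each role, the gene with the smallest p per comparison. From the other lists, called genes are named, except some that are not reported here. The members and lists were chosen with earlier results of these data known. Alternatives were DESeq2 1.42.0, limma-voom (limma 3.58.1), other scalings, filters and fits, a replicate block and leaving out each library. Fits without the 3 libraries high in Ttr (above 1000 CPM) or with log2 Ttr as a covariate were chosen after seeing the data.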

Additional observations from a re-analysis of the deposited data

Results flagged for a closer look

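In 84 sets of 4 libraries (28 genes in 3 groups), 2 held a library far from the other 3, by a gap that was more than 0.829 of the whole range. Chance gives this in about 1 in 20 sets. Gad2 was at 203.5 CPM in saline knockout 1 and at 171.7 to 176.1 CPM in the other saline knockout libraries. Nos1 was at 154.2 CPM in saline knockout 4 and at 214.7 to 225.8 CPM in the other saline knockout libraries.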

How the results depend on the processing

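Whether the replicate numbers in the titles pair the libraries was not tested. Correlations of same-numbered deviations ran from -0.0987 to 0.145, and 2, 4 and 1 of 8 libraries correlated best with their own number (saline groups, knockout groups, treated knockout against FVB, the order used below). With the number as a replicate block 3, 1 and 7 of the 28 genes were called where 1, 0 and 7 were without it (Kit, Prkcd and Sorcs3; Prkcd; and 5 of the original 7 plus Gad2 and Lypd6), and 274, 563 and 1322 of all genes where 294, 550 and 1352 were.

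Of 23 alternatives for each gene and comparison, none turned the direction of a call. In the treated knockout against FVB Nos1 was called in all 23, Gad1, Kit and Sorcs3 in all but the one without the 3 libraries high in Ttr, Npas3 was not called in 8, and Nxph1 and Gabbr1 were each not called in 9. Sorcs3 between the saline groups was not called in 12. DESeq2 called 3, 3 and 10 of the 28 genes (636, 986 and 1935 of all). Limma-voom called 0, 0 and 6 (225, 572 and 1230 of all), and a fit without robust estimation 0, 0 and 7 (309, 541 and 1316 of all). No filter gave 4, 3 and 8 (506, 783 and 1626 of all). Leaving out the 3 libraries high in Ttr gave 0, 0 and 1 (229, 215 and 556 of all, from fewer libraries), and with log2 Ttr as a covariate 0, 0 and 4 (287, 519 and 990 of all). A threshold of 0.1 gave 3, 3 and 13 (494, 917 and 2123 of all). Leaving out 1 library gave 0 to 2, 0 to 2 and 4 to 9 (156 to 300, 347 to 689 and 791 to 1542 of all). Where a large count moved, the cause was not tested.

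Small uncalled log2 values changed sign. Between the saline groups, Lgi2 was -0.0022 by limma-voom, Grm2 0.0540 without the 3 libraries and 0.0017 with the covariate, Npas3 0.0148 without the 3 libraries, Gphn -3.46e-04 with upper quartile scaling, and Sst 0.0638 by limma-voom, 0.0207 with the replicate block and 0.0334 without the 3 libraries. Leaving out 1 library gave -0.0822 to 0.0809 for Lgi2, -0.0832 to 0.0559 for Grm2, -0.0787 to 0.0823 for Npas3, -0.0063 to 0.0862 for Cnr1, -0.0259 to 0.213 for Pax2, -0.234 to 0.324 for Sst and -0.0216 to 0.0275 for Gphn. Between the knockout groups it gave -0.0930 to 0.0012 for Slc6a9, -0.118 to 0.0020 for Nxph1, -0.0685 to 0.0206 for Tfap2b, -0.0740 to 5.94e-04 for Glrb and -0.0221 to 0.0822 for Abat, and Nxph1 was 0.0570 without the 3 libraries. In the treated knockout against FVB Slc6a11 was 0.0158 and Pax2 0.0158 without them, Pax2 was 0.0041 with the covariate, and leaving out 1 library gave -0.117 to 0.0485 for Pax2 and -0.112 to 0.0377 for Prkcd. The log2 ratio difference between the saline groups was 0.0716 for Slc12a5 to Slc12a2 without the 3 libraries and -0.162 to 0.0716 without 1 library, and -0.0848 to 0.0287 for Gad1 to Gad2 without 1 library. For Slc12a5 to Slc12a2 it was 0.0050 in the treated knockout against FVB without the 3 libraries. Counting noise limits Glra1 and Sst, at 10 to 36 and 41 to 139 counts per library.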
